A study of Mus musculus with 16 samples.

Results

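The glucocorticoid response genes were 10 genes of corticosteroid signalling, chosen by name and taken from the arrays by their gene symbol. Nr3c1 and Nr3c2 are the receptors, Fkbp5, Tsc22d3, Sgk1 and Zbtb16 are targets, Hsd11b1 and Hsd11b2 convert the hormone, and Cyp11a1 and Cyp11b1 belong to its synthesis. All 10 had a value among 36711 genes measured in colon RNA. The samples were 16 RjOrl:SWISS pups at weaning, with 8 delivered by C-section (CSD) and 8 delivered vaginally (VD). CSD pups were taken by hysterectomy shortly before term and raised by foster mothers that had delivered vaginally. VD pups were born vaginally, and their litters were exchanged between mothers, so that neither group stayed with its own mother. RjOrl:SWISS mice are an outbred stock, and no allele or drug separated the groups. The CSD group held 4 females and 4 males from the litters of mothers 3 and 4. The VD group held 2 females and 6 males from the litters of mothers 5 and 6. The labels give only a number for each mother, and the study's methods name the biological mother as the factor in the array model. With 2 litters in each group, delivery mode and the particular litters cannot be told apart beyond the spread between litters.

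Glucocorticoids pass into the cell and bind the receptor encoded by Nr3c1, which is held ready by the chaperone Hsp90 and its partners. The receptor then binds short palindromic elements in DNA and raises the transcription of its targets. In the colon the mineralocorticoid receptor of Nr3c2 controls sodium uptake, and the enzyme of Hsd11b2 shields it by inactivating glucocorticoids, while the enzyme of Hsd11b1 regenerates them. The intestinal mucosa can also make glucocorticoids itself, and intestinal maturation around weaning is known to be sensitive to them.

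The arrays measured each gene with 60-base probes, and the positions below are those the scanner output gives for mm9. Of these, 3 are shown. The first is the Fkbp5 probe on which the groups did not overlap, and the others have ends farther apart in the genome than their length, so that they read joined pieces of a target's RNA and of that of the inactivating enzyme. No capitals are used in these probes because no part of them was singled out.
Fkbp5 probe A_52_P481493: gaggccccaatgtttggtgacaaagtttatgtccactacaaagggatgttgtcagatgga
Zbtb16 probe A_66_P119534: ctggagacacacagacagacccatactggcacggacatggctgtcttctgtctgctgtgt
Hsd11b2 probe A_51_P410205: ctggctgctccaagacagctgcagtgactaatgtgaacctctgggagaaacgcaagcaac
The Fkbp5 probe lies on the minus strand at chr17:28574995-28575054. The Zbtb16 probe lies on the minus strand and its ends are 52017 bases apart, at chr9:48473399-48525415. The ends of the Hsd11b2 probe span 218 bases of the plus strand at chr8:108046785-108047002. At least 1 reading frame runs through each of the 3 probes without a stop codon.

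The receptor's palindrome was searched for in the 250 bases before each start of a set of RefSeq transcription starts (GRCm38.p6). In this set 6 of the 10 genes had 14 starts. The other 4, Nr3c1, Zbtb16, Hsd11b2 and Cyp11b1, were absent from the set and were not searched. The search used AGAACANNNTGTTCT, which reads the same on both strands, and its hexamer AGAACA with the reverse complement TGTTCT. An exact palindrome was found before 3 of the 32851 starts in the table, or 0.00913%, and 1 of these was a start of Sgk1. That window lies on the plus strand at chr10:21993640-21993889, 1 of 6 starts listed for the gene, and it is shown because it is the only window of these genes with the exact palindrome. Capitals mark the hexamers.
Sgk1 start: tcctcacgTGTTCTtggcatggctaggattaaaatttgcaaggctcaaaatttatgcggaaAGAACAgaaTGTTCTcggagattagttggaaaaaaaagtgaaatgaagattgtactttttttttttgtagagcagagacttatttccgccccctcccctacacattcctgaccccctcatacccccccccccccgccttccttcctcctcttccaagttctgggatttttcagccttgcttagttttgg
The palindrome ran from base -189 to base -175 relative to the start, and a further hexamer began at base -242. At least 1 hexamer was present before 16.1% of all starts and before 4 of the 14 starts of these genes, 3 of Sgk1 and 1 of Tsc22d3. The single window of Fkbp5 held neither. Such matches describe letters in a window and were not tested as binding sites.

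Of the 10 genes, Fkbp5 was the only one called between the delivery modes. Its level was higher in CSD pups by 0.65 on the log2 scale (SE 0.10), or 1.57-fold, with a limma adjusted p of 0.00807 over all genes. Zbtb16 and Tsc22d3 had positive differences that did not pass the 5% limit, and the other 7 genes did not pass it either. Across the array 460 of 36711 genes were called, or 1.25%, of which 0.706% of all genes were higher in CSD pups and 0.548% were lower. Of the 10 genes, 7 had a positive and 3 a negative difference, with a median of 0.07, beside 51.7% positive and a median of 0.003 over all genes. An unadjusted p under 0.05 was reached by 5 of the 10 and by 14.5% of all genes. The p-values treat littermates as separate samples with a shared correlation of 0.0152.

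Fkbp5 encodes an Hsp90-binding co-chaperone that lowers the affinity of the receptor for its hormone and is itself strongly induced by glucocorticoids. Its log2 intensity in the 8 CSD pups was 8.82 at the lowest, 9.23 at the median and 9.44 at the highest. In the 8 VD pups it was 8.24, 8.49 and 8.84. The groups touched only at their edges. The highest VD value, in VD pup 6, exceeded that of a single CSD animal, pup 1, and the 7 others were higher. The means were 9.16 ± 0.22 in CSD and 8.49 ± 0.19 in VD pups (SD, n = 8 each). An exact two-sided permutation test over all assignments of 8 of the 16 pups to a group gave p = 0.000311. This test takes neither litter nor sex into account, and its p is unadjusted. The litter means were 9.15 for mother 3 and 9.18 for mother 4, against 8.41 for mother 5 and 8.62 for mother 6. Both CSD litters thus stood above both VD litters, an arrangement in one direction or the other that 42% of all genes had. An exact test on 2 against 2 litters cannot go below p = 0.333. The arrays came on 2 slides with 4 pups of each group on each. On slide 1 the lowest CSD pup was at 8.82 and the highest VD pup at 8.50. On slide 2 these were 9.17 and 8.84. The groups thus did not overlap within a slide, where 4 pups stood against 4. CSD pup 1 and VD pup 6, which did overlap, were on slides 1 and 2. The share of all genes with such a separation on both slides was not computed. The difference kept its sign under all 37 alternatives, of which 1 (a stricter filter on dim probes) was added after the data were seen, and was called under 30 of them, including all 16 that left out a single pup. The call was lost without the litter of mother 5, where the difference was 0.51 (limma adjusted p = 0.172), and with quantile normalized scanner-corrected intensities, where it was 0.99 (limma adjusted p = 0.0566), while the same intensities scaled by their 75th percentile kept it (0.99, limma adjusted p = 0.0396). The other 5 settings that lost it used litter means or fewer pups.

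**Figure D1:**
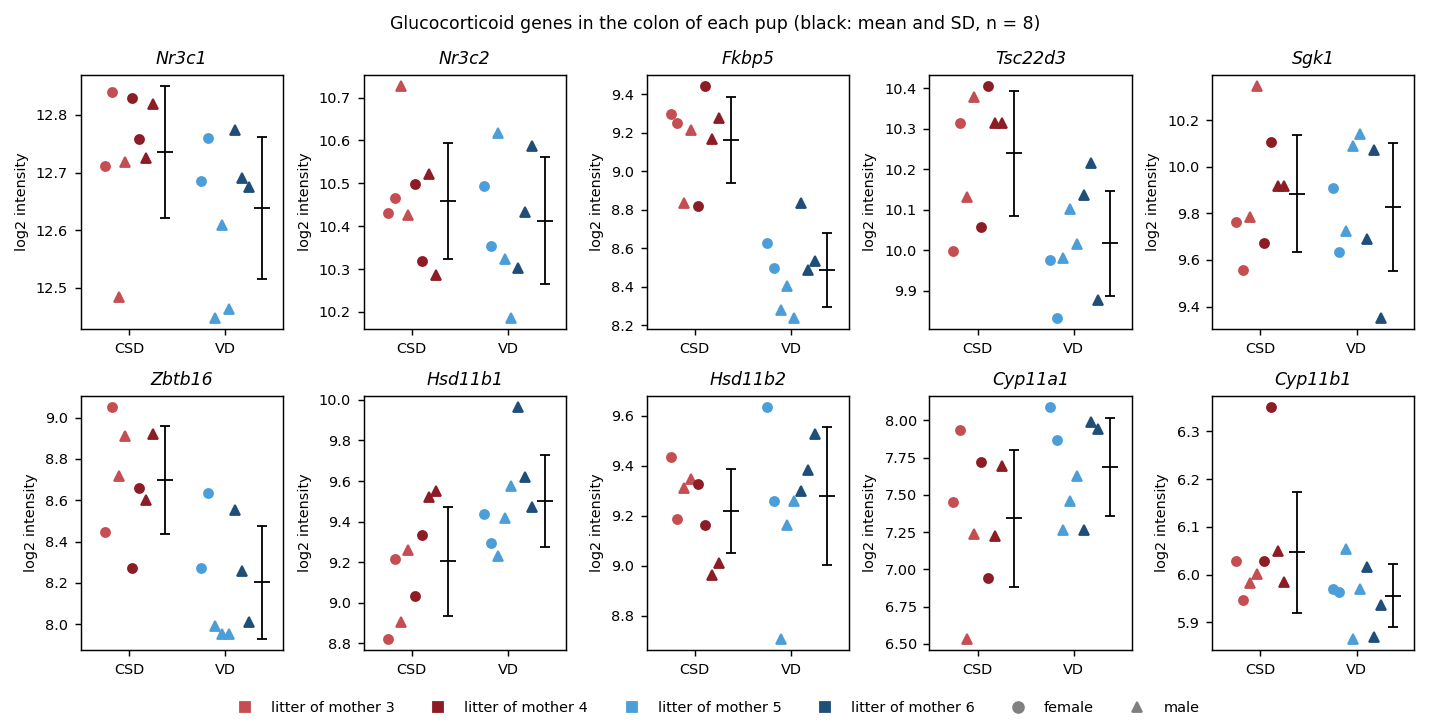
Log2 intensity (vertical axes, each panel with its own scale) of the 10 genes in every pup, by delivery mode, with litters in colour, sexes as symbols and the mean and SD of 8 pups in black. Fkbp5 shows the clearest separation, with 7 of 8 CSD animals higher than the whole VD group, while the groups overlap broadly for Sgk1, Nr3c2 and Hsd11b2.

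The 3 Fkbp5 probes differed in how well they were measured. The probe shown above, A_52_P481493, was well above background on all 16 arrays and ranged from 8.68 to 9.39 in CSD pups and from 7.88 to 8.55 in VD pups. All 8 CSD pups lay above all 8 VD pups on this probe, a separation in either direction that 0.545% of all probes and, for gene means, 0.496% of genes showed. Full separation of 8 from 8 pups always gives the smallest exact permutation p over pups, 0.000155. That p therefore restates the separation for which the probe was shown, and it exchanges littermates freely. With every probe fitted on its own, an alternative added after the data were seen, 1.64% of 56366 probes were called. In that fit A_52_P481493 differed by 0.85 (SE 0.12) with a limma adjusted p of 0.00308. The brightest probe, A_55_P1952379 at chr17:28536060-28536119, differed by 0.88 (SE 0.17) with a limma adjusted p of 0.0172, and its values were 11.34 to 12.37 in CSD and 10.64 to 11.68 in VD pups. The remaining probe, A_66_P107081, was above background on 5 CSD arrays and 1 VD array, and its difference of 0.23 (SE 0.07) drew the gene's mean down.

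Zbtb16 encodes a zinc finger transcription repressor that is induced by glucocorticoids in many cell types. Its log2 intensity was 8.27 at the lowest, 8.69 at the median and 9.05 at the highest in CSD pups, and 7.95, 8.13 and 8.63 in VD pups. Every CSD pup lay above the VD median and 5 of 8 exceeded the highest VD value, but the ranges overlapped. The difference was 0.48 (SE 0.14), with a limma adjusted p of 0.0943. The exact permutation p was 0.0042, unadjusted and without regard to litter or sex. Its bright probe A_55_P2024155 differed by 0.77 (SE 0.20, limma adjusted p = 0.0611), while the probe shown above, which was above background on 8 CSD and 5 VD arrays, differed by 0.20 (SE 0.09).

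Tsc22d3 encodes GILZ, a leucine zipper protein that carries part of the anti-inflammatory action of glucocorticoids. Its log2 intensity was 9.997 at the lowest, 10.31 at the median and 10.41 at the highest in CSD pups, and 9.83, 9.998 and 10.22 in VD pups. The top 5 CSD values exceeded the highest VD value and the rest lay among the VD values. The gene differed by 0.25 (SE 0.07), with a limma adjusted p of 0.088. The exact permutation p was 0.00979, again unadjusted and without regard to litter or sex. On slide 1 alone the difference was 0.14 and on slide 2 alone 0.35, with limma adjusted p of 0.671 and 0.171. Its brightest probe, A_55_P1989061 at chrX:137074094-137074153, differed by 0.43 (SE 0.10) and was called in the fit of single probes (limma adjusted p = 0.0378). The second bright probe differed by 0.32 (SE 0.10, limma adjusted p = 0.133), and the third was above background on 0 arrays and entered the gene's mean.

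Sgk1 encodes the serum and glucocorticoid regulated kinase, which keeps epithelial sodium channels at the cell surface. Its log2 intensity was 9.56 at the lowest, 9.85 at the median and 10.35 at the highest in CSD pups, and 9.35, 9.82 and 10.14 in VD pups, so the groups overlapped over most of their range. The difference was 0.10 (SE 0.13), with a limma adjusted p of 0.788. It was 0.02 without CSD pup 9 and 0.03 without VD pup 8. Leaving out mother 5's litter gave 0.29 and leaving out mother 6's gave 0.006, and Sgk1 was called in none of these. Its bright probe A_51_P118237 differed by 0.32 (SE 0.24, limma adjusted p = 0.584), and the other probe was above background on 0 arrays. The window with the exact palindrome shown above is that of a start of this gene, and which start gave the measured RNA was not tested.

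**Figure D2:**
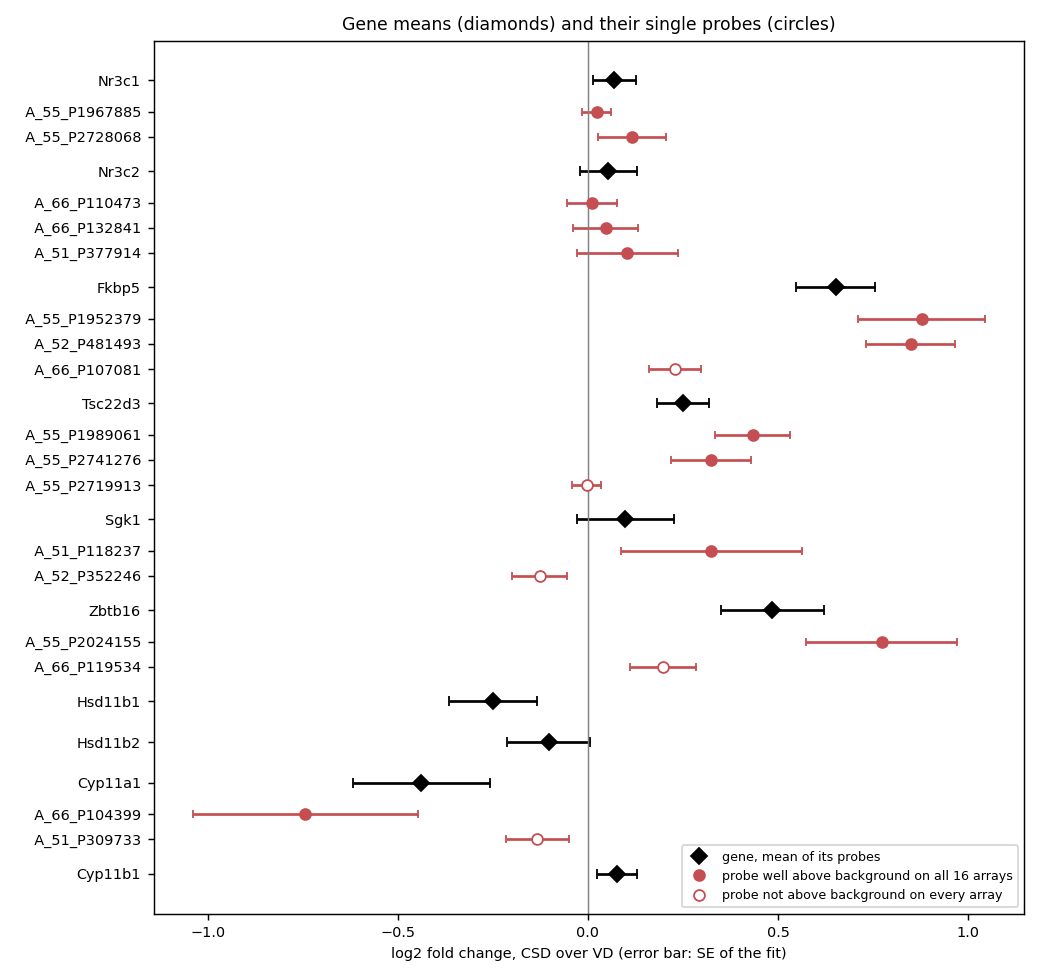
Log2 fold change of CSD over VD pups (horizontal axis) with the SE of the limma fit, for each gene (diamonds) and, where a gene has several probes, for each probe (circles, filled where well above background on all 16 arrays). The bright probes of Fkbp5 lie at 0.85 and 0.88, to the right of the gene's mean of 0.65, and open circles of dim probes lie closer to 0.

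Neither receptor was called between the groups. Nr3c1 was 12.74 ± 0.11 in CSD and 12.64 ± 0.12 in VD pups (SD, n = 8 each), a difference of 0.07 in the fit (SE 0.06, limma adjusted p = 0.636). Both of its probes were well above background on every array. Nr3c2 was 10.46 ± 0.14 in CSD and 10.41 ± 0.15 in VD pups, and differed by 0.05 (SE 0.07, limma adjusted p = 0.801). These values do not show that the receptors were equal, only that their differences were not beyond the spread.

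The enzymes that convert the hormone had negative differences that were not called. Hsd11b1 ranged from 8.82 to 9.55 in CSD and from 9.23 to 9.96 in VD pups, and 4 of 8 CSD values were under the lowest VD value. It differed by -0.25 (SE 0.12), with a limma p of 0.0478 before and 0.339 after adjustment. Leaving out mother 3's litter gave -0.08 (limma adjusted p = 0.813), and leaving out mother 4's gave -0.42 (limma adjusted p = 0.189). Its litter means were 9.05 for mother 3 and 9.36 for mother 4, and 9.39 and 9.69 for mothers 5 and 6. Hsd11b2 ranged from 8.96 to 9.43 in CSD pups, inside the VD range of 8.71 to 9.63, and differed by -0.10 (SE 0.11, limma adjusted p = 0.728).

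The synthesis genes were not called. Cyp11a1, which cuts the side chain of cholesterol in the first step, was 7.34 ± 0.46 in CSD and 7.69 ± 0.33 in VD pups and differed by -0.44 (SE 0.18), with a limma p of 0.0278 before and 0.263 after adjustment. This difference came mostly from probe A_66_P104399 of the transcript AK137397 at chr9:57854517-57854576, which was above background on all 16 arrays and differed by -0.74 (SE 0.29). The probe of the RefSeq transcript at chr9:57874074-57874544 was above background on 1 of 16 arrays and differed by -0.13 (SE 0.08). Cyp11b1, which makes corticosterone in the last step, was above background on 0 arrays, as was Cyp11b2 of aldosterone synthesis. Cyp21a1, Star and Nr5a1 were above background on every array at log2 intensities near 7, with adjusted p-values of 0.765, 0.978 and 0.633 by limma.

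None of the 10 genes was called between the sexes, where 0.0599% of all genes were called, or for a difference in the delivery effect between the sexes, where 0.00272% were called. For Fkbp5 the means in females were 9.20 in CSD (n = 4) and 8.56 in VD pups (n = 2), and in males 9.12 (n = 4) and 8.46 (n = 6). Its interaction of delivery and sex was -0.03 (SE 0.22). Zbtb16 had the smallest interaction p of the 10 by limma, 0.0556 before and 0.981 after adjustment, with means in females of 8.61 in CSD and 8.45 in VD pups and in males of 8.79 and 8.12. Cyp11a1 had the largest difference between the sexes, 0.36 higher in females (SE 0.18, limma adjusted p = 0.79). None of the 10 genes was called between the litters of mothers 3 and 4, where 0.0872% of all genes were called, or of mothers 5 and 6, where 0.874% were called. An unadjusted p under 0.05 was reached by 0 of the 10 for sex and for the interaction, beside 6.45% and 4.72% of all genes. It was reached by Hsd11b1 alone between mothers 3 and 4, beside 7.68% of all genes. Between mothers 5 and 6 it was reached by Nr3c1 alone, beside 11.5%. Within the CSD group Hsd11b1 had the largest difference of the 10 between litters, -0.31 for mother 3 against mother 4 (SE 0.13, limma adjusted p = 0.589).

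Across the 16 pups the levels of Fkbp5 and Zbtb16 had a Pearson r of 0.802 and a Spearman rho of 0.80 (permutation p = 0.00039 and 0.00037, and 0.00234 and 0.00222 after adjustment over 6 pairs of targets). The permutations for this and the other pairs exchanged all 16 pups freely and took neither litter nor delivery mode into account. A difference between the groups in both genes thus enters r and its p. Without the 2 pups farthest from the median of Fkbp5, r was 0.79. The relation was weaker on values centred on their litter, where r was 0.556, and 0.403 within the 8 CSD and 0.698 within the 8 VD pups. On the slides it was 0.687 and 0.889. Fkbp5 and Tsc22d3 had an r of 0.706 and a rho of 0.594 (permutation p = 0.00356 and 0.0178, adjusted 0.0107 and 0.0505), and r was 0.645 without the 2 farthest pups, 0.33 on litter-centred values, 0.558 within the CSD and 0.161 within the VD pups, 0.363 on slide 1 and 0.915 on slide 2. Tsc22d3 and Zbtb16 had an r of 0.636 and a rho of 0.565 (permutation p = 0.00955 and 0.0252, adjusted 0.0191 and 0.0505), with 0.795 without the 2 farthest pups, 0.375 on litter-centred values, 0.692 within the CSD and -0.061 within the VD pups, 0.258 on slide 1 and 0.865 on slide 2.

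Sgk1 with Tsc22d3 had an r of 0.534 and a rho of 0.515 (permutation p = 0.0347 and 0.0449, adjusted 0.052 and 0.0674), 0.441 without the 2 farthest pups, 0.72 on litter-centred values, the highest of the 6 pairs there, 0.589 within the CSD and 0.629 within the VD pups, and 0.686 and 0.479 on the slides. With Fkbp5 its r was 0.106 and its rho 0.021 (permutation p = 0.696 and 0.943, adjusted 0.835 and 0.943), 0.149 without the 2 farthest pups, and 0.38 within the CSD and -0.378 within the VD pups. With Zbtb16 its r was 0.049 and its rho -0.071 (permutation p = 0.855 and 0.796, adjusted 0.855 and 0.943), and r was -0.433 without the 2 farthest pups, 0.213 within the CSD and -0.271 within the VD pups. Differences between correlations were not tested.

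**Figure D3:**
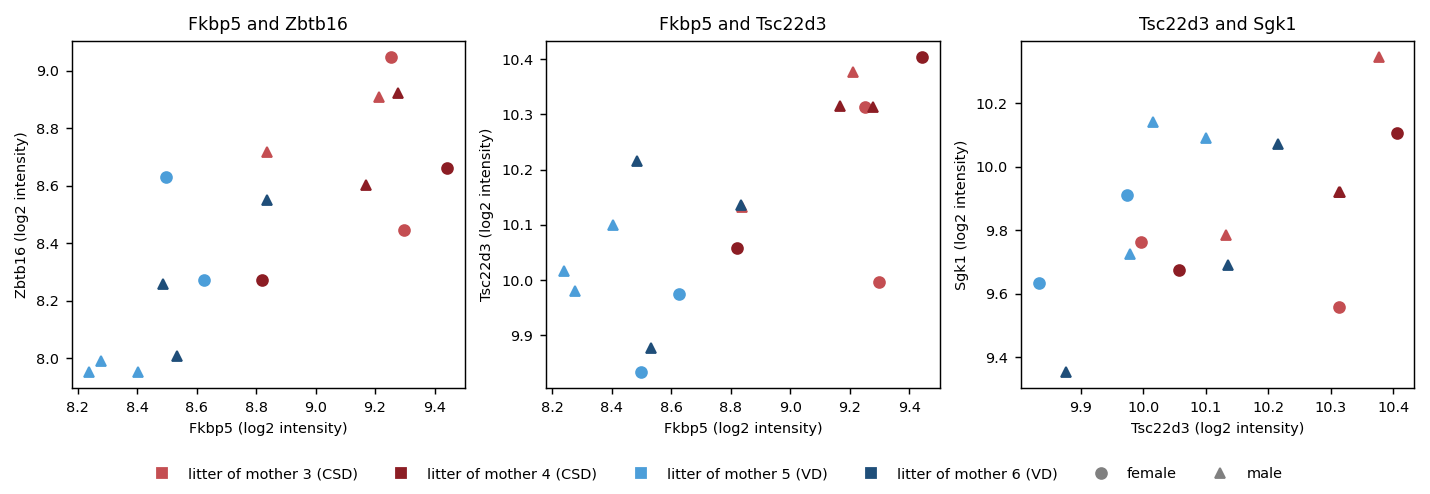
Log2 intensities of 3 pairs of target genes in the 16 pups (both axes), with litters in colour and sexes as symbols. Fkbp5 and Zbtb16 lie along a rising band (r = 0.802), as do Fkbp5 and Tsc22d3 (r = 0.706), in both cases with CSD pups mostly at the upper right, whereas Tsc22d3 and Sgk1 (r = 0.534) show no such split by delivery mode along Sgk1.

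The genes whose levels followed a member most closely were sought among 20548 genes above background on every array and with no missing value, by Pearson r over the 16 pups. For Fkbp5 they were Nol8 (r = 0.958), Stam2 (r = 0.943) and Rcbtb1 (r = 0.908), and on litter-centred values these were 0.832, 0.707 and 0.603. For Tsc22d3 they were Ctgf (r = 0.873), Miga1 (r = 0.854) and Slc10a6 (r = 0.831). For Zbtb16 they were 8430431K14Rik (r = 0.903), Dynlt3 (r = 0.858) and Cul3 (r = 0.835). On litter-centred values these were 0.894, 0.864 and 0.738 for Tsc22d3 and 0.882, 0.672 and 0.593 for Zbtb16. For Sgk1 the closest named genes were Tmcc3 (r = 0.721) and Polr3gl (r = 0.713), below the values of the other targets. Nr3c2 was closest to Pxylp1 (r = 0.876), Usp9x (r = 0.869) and Tpr (r = 0.859), and Hsd11b1 to Jam3 (r = 0.901), Kcnk3 (r = 0.878) and Meox2 (r = 0.876). Hsd11b2 was closest to Rtkn (r = 0.781), Klhdc8a (r = 0.781) and Zp1 (r = 0.769), and Cyp11a1 to Retreg2 (r = 0.828), Fn3k (r = 0.815) and Hdac5 (r = 0.814). The 3 closest to Nr3c1 carried transcript identifiers only, with r from 0.895 to 0.905. Litter-centred r of the closest genes of Sgk1, the receptors, the enzymes and Cyp11a1 was between 0.701 and 0.903.

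Of the chaperones that fold the receptor, Hsp90aa1, the inducible Hsp90, was called. It was 11.24 ± 0.19 in CSD and 10.77 ± 0.13 in VD pups (SD, n = 8 each), a difference of 0.44 (SE 0.08, limma adjusted p = 0.0147). It was the only one called of 12 measured, of which 7 had a positive and 5 a negative difference, with a median of 0.05, beside 1.25% called, 51.7% positive and a median of 0.003 over all genes. The co-chaperones Dnaja1 (0.18, SE 0.05, limma adjusted p = 0.0929) and Ppid (0.15, SE 0.05, limma adjusted p = 0.126) missed the limit. So did the chaperone Hspa8 (0.22, SE 0.07, limma adjusted p = 0.132) and Stub1, a ubiquitin ligase that works with chaperones, at -0.14 (SE 0.06, limma adjusted p = 0.33). Fkbp4, a co-chaperone related to Fkbp5 that favours transport of the receptor, differed by -0.06 (SE 0.09), and Hsp90ab1, the constitutive Hsp90, by 0.07 (SE 0.08). Of 10 coregulators 8 had a positive difference and 1 was called, beside 51.7% and 1.25% of all genes. The gene called was the acetyltransferase Crebbp, at 0.22 (SE 0.05, limma adjusted p = 0.0344). The corepressor Ncor1 (0.10, SE 0.03, limma adjusted p = 0.12) was not called. The difference of Hsp90aa1 was larger on its brightest probe (0.82), on the deposited matrix (0.67) and with only probes well above background in at least 4 arrays (0.67). It was also called there and with any single pup left out, though not with scanner-corrected intensities, whether quantile normalized (0.42, limma adjusted p = 0.221) or scaled by their 75th percentile (0.48, limma adjusted p = 0.168), nor without the litter of mother 4 (0.40, limma adjusted p = 0.12) or mother 5 (0.38, limma adjusted p = 0.14). Crebbp lost the call without CSD pup 2, 3, 6, 7 or 9 or VD pup 4, without the litter of mother 4 or 5, and on its brightest probe, where the difference was 0.07.

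Among 24 other genes known to be induced by glucocorticoids, 16 had a positive and 8 a negative difference, with a median of 0.13, and 1 was called, beside 51.7% positive, a median of 0.003 and 1.25% called over all genes. This was Bcl6, a transcription repressor, which was 9.03 ± 0.21 in CSD and 8.63 ± 0.16 in VD pups, a difference of 0.41 (SE 0.09, limma adjusted p = 0.0409). Glul, the glutamine synthetase, differed by 0.24 (SE 0.07, limma adjusted p = 0.134), Cebpd by 0.22 (SE 0.08, limma adjusted p = 0.185) and the clock gene Per1 by 0.19 (SE 0.09, limma adjusted p = 0.334). The feedback inhibitors Dusp1 (-0.26, SE 0.13) and Zfp36 (-0.22, SE 0.10) had negative differences, and the classical liver targets Tat (-0.05, SE 0.10) and Pck1 (0.07, SE 0.14) had differences below their SE. Larger differences than that of Bcl6 belonged to Angptl4 (0.65, SE 0.34, limma adjusted p = 0.408) and Klf15 (0.45, SE 0.23, limma adjusted p = 0.405), which were not called. An unadjusted p under 0.05 was reached by 5 of the 24, beside 14.5% of all genes. The call of Bcl6 was lost on leaving out 11 of the 16 pups in turn (all but CSD pup 8 and VD pups 6, 7, 8 and 9), with a highest limma adjusted p of 0.0949, and on the deposited matrix (0.51, limma adjusted p = 0.0635). It was also lost without the litter of mother 4 (0.37, limma adjusted p = 0.15) or mother 5 (0.28, limma adjusted p = 0.424) and with scanner-corrected intensities, quantile normalized (limma adjusted p = 0.0542) or scaled (limma adjusted p = 0.0503), and in all under 24 of 37 alternatives.

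None of the 12 genes downstream of the mineralocorticoid receptor and Sgk1 was called, and 2 had an unadjusted limma p under 0.05. Over all genes 1.25% were called and 14.5% had such a p, the shares to set beside each list here. Slc9a3, the apical sodium and proton exchanger, was 8.99 ± 0.47 in CSD and 7.98 ± 0.70 in VD pups and differed by 0.88 (SE 0.27, limma adjusted p = 0.126). The sodium channel subunits Scnn1a (-0.13, SE 0.05), Scnn1b (-0.04, SE 0.07) and Scnn1g (0.39, SE 0.24) were not called. None was called of 17 genes of steroid synthesis and its regulators, where Hsd3b6 (0.20, SE 0.05, limma adjusted p = 0.0649) and Nr5a2 (0.25, SE 0.10, limma adjusted p = 0.271), a regulator of intestinal steroid synthesis, had the smallest p. An unadjusted p under 0.05 was reached by 3 of these 17, beside 14.5% of all genes. Hsd3b6 was above background on 4 CSD arrays and 1 VD array. None was called of 5 genes of steroid carriage, export and reduction (Srd5a1 and Serpina6 had the smallest p, with limma adjusted p of 0.742 and 0.777) or of 9 genes of the corticotropin system, of which Crh, Crhbp, Ucn, Ucn2 and Ucn3 were above background on 0 arrays, as was Serpina6. The smallest p of the corticotropin system belonged to Crhbp (limma adjusted p = 0.307), for which no level was measured above background, and to Crhr2 (-0.08, SE 0.04, limma adjusted p = 0.468). An unadjusted p under 0.05 was reached by 0 of the 5 and 1 of the 9 genes, beside the same 14.5%. None of 7 paralogs was called and 0 had an unadjusted p under 0.05, beside 1.25% and 14.5% of all genes, with Tsc22d1 at -0.09 (SE 0.05).

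The colon is a mixture of cells, and fewer cells of a type and less RNA in each cell cannot be told apart here. All 7 epithelial markers were above background on every array, with Krt8 the brightest. Their mean was 14.66 ± 0.18 in CSD and 14.48 ± 0.14 in VD pups (log2, SD, n = 8 each), and 6 of the 7 were higher in CSD pups, beside 51.7% of all genes, 2 of them with an unadjusted limma p under 0.05 and none called. Of the 4 small-intestinal markers measured, Apoa4 and Lct were above background on no array and Reg3b on 2 arrays of each group, while Fabp6, an ileal bile acid binding protein, was above background on every array at 10.01 ± 0.52 in CSD and 10.13 ± 0.38 in VD pups. Beside the difference in Fkbp5, the mean of the 4 T cell markers was 8.54 ± 0.42 in CSD and 9.09 ± 0.54 in VD pups (log2, SD, n = 8 each), led by Cd2, and that of the 4 B cell markers was 7.77 ± 0.31 and 8.27 ± 0.34. The mean of the 4 macrophage markers was 10.17 ± 0.24 and 10.42 ± 0.12, led by Lyz2, and that of the 5 goblet cell markers was 15.33 ± 0.14 and 15.04 ± 0.14. The values of all 12 immune markers were lower and those of all 5 goblet cell markers higher in CSD pups, beside 51.7% of all genes higher. None of these 17 genes was called, but an unadjusted limma p under 0.05 was reached by 1 of the 4 T cell, 3 of the 4 B cell, 2 of the 4 macrophage and 3 of the 5 goblet cell markers, beside 14.5% of all genes. The mean of the 4 adipocyte markers ran from 6.98 to 9.88 in CSD and from 8.27 to 9.94 in VD pups. All 4 were lower in CSD pups, 1 with an unadjusted limma p under 0.05 and none called. CSD pup 1 had the lowest mean of the CSD pups and also their lowest Fkbp5, and VD pup 6 the highest of the VD pups in both. Other pups broke this order. CSD pup 3 had a low adipocyte mean of 7.74 but a Fkbp5 of 9.30, above the CSD median. VD pup 8 had the lowest adipocyte mean of the VD pups, 8.27, but a Fkbp5 of 8.53, above the VD median. VD pup 6 also had the highest means of the T cell (10.20) and macrophage (10.62) markers. The part of the epithelial, immune, goblet cell and adipocyte markers in the differences of Fkbp5, Zbtb16, Tsc22d3, Hsp90aa1 and Bcl6 was not tested.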

How the data were processed

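Colon RNA of 16 pups was hybridised to 1-colour Agilent arrays. The authors deposited scanner output with a mean intensity, a local background and a scanner-corrected intensity for every spot, and a matrix in log2 units that they had normalized and averaged by gene (submitters' notes: limma 3.38). Here normexp correction (offset 50) was applied to the deposited intensity of 62976 spots with limma 3.58.1 in R 4.3.3. Control and outlier spots were left out, and log2 values were quantile normalized. Spots were averaged by probe. A probe stayed if it exceeded the 5% quantile on 4 or more arrays, which left 56366 of 56605, and the probes of a gene were averaged. The limma model (lmFit, eBayes) took delivery and sex as fixed and mother as random effects, and the limit for a call was an adjusted p (Benjamini-Hochberg) of 0.05. Litters were compared with limma without the random effect. Permutation tests and correlations used scipy with 100000 resamples where not exact. The fit was tested on simulated data, and the outcome is not reported or relied on here. Between 58.7% and 64.87% of spots were well above background, and no spot was saturated. The number of arrays limits the precision, and all changes are of intensity on a log2 scale that the offset compresses for dim probes.

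The 10 genes and all lists were chosen with earlier results of these data known. Named genes were the 10 members, from each pathway list the genes called or else the 2 with the smallest p, and the 3 genes most correlated with each member above background on every array, where transcripts without a gene symbol are left unnamed. Others, cell type markers included, were named after their values were seen. Most genes of the lists are counted without being named, and some that this rule selects are not reported here. Samples are named by the number in their title. Replicates are littermates from 2 litters per group. Alternatives covered correction, scaling, filtering, probe choice, the model, slides, sexes and pups or litters left out. Lists of receptor chaperones, coregulators, steroid synthesis, steroid carriage, the corticotropin system, glucocorticoid-induced genes, colon sodium transport, paralogs and markers of epithelium, goblet cells, T cells, B cells, macrophages and small intestine were described. Markers of other cell types were also summarised (smooth muscle, fibroblast, endothelium, neuron and glia, adipocyte and adrenal cortex, with CSD minus VD differences of -0.12, -0.01, -0.14, -0.07, -0.32 and -0.02 in their mean log2 intensity). Positions of probes come from the scanner files (mm9), and their place in exons or UTRs was not assigned here.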

Additional observations from a re-analysis of the deposited data

Results flagged for a closer look

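Among the 10 genes in the 2 groups of 8 pups, 20 sets of values were examined for a pup standing far from the others, and chance alone marks about 1 set in 20. In CSD pup 2 Cyp11b1 had a log2 intensity of 6.35, the highest of the 8 CSD pups, and the gap to the next pup was 0.748 of the group's range. Cyp11b1 was not well above background on any array. In CSD pup 8 Nr3c1 had a log2 intensity of 12.48, the lowest of the 8 CSD pups, with a gap of 0.640 of the range.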

How the results depend on the processing

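Of 365 values of the 10 genes under the alternatives, 349 kept their direction and their side of the threshold, and Fkbp5 ranged from 0.51 to 0.99. Beside 460 genes called, 243 were called with a normexp offset of 16, 177 with scanner-corrected intensities after quantile normalization, 164 with these minus the 75th percentile and 170 on the deposited matrix. With litter means as samples, in males only and on slide 2 alone 0 genes were called, and on slide 1 alone 11, with Fkbp5 at 0.65 (unadjusted p = 0.00101), 0.66 (0.000256), 0.68 (0.000792) and 0.63 (0.00321) by limma. Of the 10 genes 0 were called in these and with quantile normalized scanner-corrected intensities. On the brightest probe of each gene 2 of the 10 were called, beside 506 or 1.38% of all genes. Tsc22d3 reached a limma adjusted p of 0.045 there. The number of genes called ranged from 138 to 2265 when a pup or a litter was left out. It was between 145 and 304 without CSD pup 1, 2, 3, 5, 6, 7 or 9 or VD pup 4, 5 or 11, 212, 138 and 189 without the litters of mothers 3, 4 and 5, and 2265 without that of mother 6. Of the 10 genes 0 were called without the litter of mother 5, and 3 (Fkbp5, Tsc22d3 and Zbtb16) without that of mother 6, beside 0.515% and 6.17% of all genes. Each case leaves 1 VD litter. Leaving out a pup or litter gave Nr3c1 differences from -0.0269 to 0.128, Nr3c2 from -0.00806 to 0.111 and Hsd11b2 from -0.243 to 0.0107. The sign of Sgk1 turned with quantile normalized scanner-corrected intensities (-0.0528) and on slide 1 (-0.0465), and that of Hsd11b2 on slide 1 (0.0787). The causes were not tested, and the single slides, males only and litter means also hold fewer samples.

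With the number in the title as a replicate block, which was possible for 10 pups, 0 genes were called in all and so 0 of the 10. Fkbp5 differed by 0.62 there, with a limma adjusted p of 0.137 and an unadjusted one of 0.000443. Between pups with the same number, the correlation of deviations ran from -0.0492 to 0.215. For 2 of the 5 shared numbers the CSD pup's best match among the VD pups carried its number. These numbers were therefore not taken to pair the samples. For the comparisons of sexes and of litters 0 of the 10 genes were called under the 4 alternatives run for each. Dim probes limit what can be seen of Cyp11b1 and of the RefSeq probe of Cyp11a1.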
